A study of Rattus norvegicus with 10 samples.

Results

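Actins are closely related proteins that polymerise into filaments, made in mammals from 6 genes. The genes followed here were the muscle actins Acta1 (skeletal muscle alpha-actin), Acta2 (smooth muscle alpha-actin), Actg2 (smooth muscle gamma-actin) and Actc1 (cardiac muscle alpha-actin) and the cytoplasmic actins Actb (beta-actin) and Actg1 (gamma-actin). A probe set, the group of array probes that is summarised to 1 value, was taken when the platform annotation gave it 1 gene only and that gene was one of these, and control probe sets were left out. This rule found 5 of the 31099 probe sets of the array, for 4 of the 6 genes (and of 14217 genes with a probe set of their own): 1369928_at for Acta1, 1370857_at for Acta2, 1386869_at for Actg2, and 1371327_a_at and 1384581_at for Actg1. Actc1 and Actb had no probe set of their own and were read only by probe sets annotated to several actins, of which there were 7.

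Gene expression was measured on 10 single-colour Affymetrix rat arrays, 2 for each of 5 lines of A7r5, which the labels call vascular smooth muscle cells and which was derived from embryonic rat aorta. All lines are described as stably transfected, although the titles of the empty vector samples call their expression native, and were grown without hypoxia to about 50% confluence in DMEM with 10% serum. The constructs were BMPR2 (human in wild type), a receptor that binds bone morphogenetic proteins at the cell surface, with T354G in the extracellular domain (ED mutant), with C994T in the kinase domain (KD mutant), with 2579-2580delT in the cytoplasmic tail (CD mutant) or without mutation (wild type), and a vector without BMPR2 (empty vector). The labels do not say whether a line was 1 clone or a pool, or whether the 2 arrays of a line came from separate cultures, so the p-values measure only the spread between these arrays. The construct came in addition to the rat cells' own Bmpr2 gene.

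Actin monomers join into filaments that carry contraction in muscle and shape and movement in other cells, and each muscle type uses its own actin as the main contractile isoform. Smooth muscle alpha-actin marks vascular smooth muscle, and smooth muscle gamma-actin is best known from the gut and other visceral muscle. Free actin monomers hold the coactivator Mrtfa in the cytoplasm; when monomers are used up, Mrtfa enters the nucleus and works with the transcription factor Srf, which binds an element named the CArG box in many actin and contractile genes. The BMP receptor is known to act on smooth muscle genes through Smad proteins and Mrtfa.

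The sequences just upstream of 3 actin genes are shown because they hold that element or a near match to it. They are the 250 bases before the gene start, on the minus strand, from RefSeq in rat build GRCr8: chr19:68784195-68784444 for Acta1, chr1:241172504-241172753 for Acta2 and chr10:106120952-106121201 for Actg1. Capitals mark a CArG box (a pair of C, 6 bases that are each A or T, and a pair of G) or the same 10 letters with 1 of the 6 middle bases G or C, called CArG-like here. Both patterns read the same class of letters on either strand.
Acta1: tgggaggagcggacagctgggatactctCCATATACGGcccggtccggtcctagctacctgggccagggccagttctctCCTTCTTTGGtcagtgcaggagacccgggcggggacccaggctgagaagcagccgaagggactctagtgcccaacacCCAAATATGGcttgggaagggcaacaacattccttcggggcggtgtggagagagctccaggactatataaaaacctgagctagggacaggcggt
Acta2: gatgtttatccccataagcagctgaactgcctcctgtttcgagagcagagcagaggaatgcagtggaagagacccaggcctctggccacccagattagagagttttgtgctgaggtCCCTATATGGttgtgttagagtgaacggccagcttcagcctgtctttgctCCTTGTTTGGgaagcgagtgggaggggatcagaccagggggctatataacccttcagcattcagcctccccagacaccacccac
Actg1: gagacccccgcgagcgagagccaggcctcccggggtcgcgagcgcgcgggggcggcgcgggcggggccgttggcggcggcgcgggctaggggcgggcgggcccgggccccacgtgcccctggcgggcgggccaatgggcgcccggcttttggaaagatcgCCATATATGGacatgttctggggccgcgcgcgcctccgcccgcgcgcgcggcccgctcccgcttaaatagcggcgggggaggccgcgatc
Acta1 held 1 CArG box, CCAAATATGG, starting 94 bases before the gene start, and 2 CArG-like boxes, CCATATACGG at 222 bases and CCTTCTTTGG at 171 bases. Acta2 held 2 CArG-like boxes, CCCTATATGG at 134 bases and CCTTGTTTGG at 84 bases. Actg1 held 1 CArG box, CCATATATGG, at 90 bases. The same window of Actc1 held 3 CArG-like boxes and that of Actg2 held neither form. Of 33469 rat promoters searched in the same way, 1.5% held a CArG box, 6.84% a CArG-like box and 8.08% either form. These matches describe letters only, and binding was not measured.

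The 2 arrays with the KD mutant label were unlike the other 8, which bears on every actin value. Their log2 values correlated at 0.711 to 0.721 with those of the other 8 arrays, against 0.992 to 0.996 among the other 8 and 0.992 between themselves. Their array medians were 4.94 and 4.95, against 5.32 to 5.36 on the other 8. The rat GAPDH controls, which compare the 3′ with the 5′ end of that transcript as a sign of RNA quality, differed by 0.04 and 0.30 on the log2 scale on the arrays labelled KD mutant and by 0.37 to 0.43 on the others. The same difference for the beta-actin controls was 0.92 and 1.21 on the arrays labelled KD mutant and 0.94 to 1.14 on the others, so these ranges overlapped. Spiked-in poly-A controls, which are added to the RNA, averaged 6.22 and 6.76 on the arrays labelled KD mutant and 7.04 to 8.04 on the others. Tagln (transgelin), Cnn1 (calponin), Des (desmin) and Acta2, which mark smooth muscle, averaged 11.33, 7.86, 8.44 and 9.38 on the arrays labelled KD mutant, against 4.98, 4.39, 6.09 and 6.26 over the other 8. Of the other 4 smooth muscle markers tested, Smtn (smoothelin, 8.34 on the arrays labelled KD mutant and 10.41 over the other 8) and Mylk (myosin light chain kinase, 7.23 and 7.84) ran the other way. Myh11 (smooth muscle myosin, 6.95 and 6.79) and Synpo2 (4.89 and 4.88) were at close levels. Cnn1 lay below the filter level of 4.82 on all 8 (3.98 to 4.57), and Tagln lay at or just above it (4.82 to 5.19). The epithelial genes Cdh1 (E-cadherin) and Krt19 (keratin) ran the other way, at 5.87 and 5.99 on the arrays labelled KD mutant and 9.71 and 9.41 over the other 8. The labels call all lines smooth muscle cells, yet on the other 8 arrays Tagln and Cnn1 were dim and Cdh1 and Krt19 bright. Cldn7 and Esrp1, also epithelial, were near the filter level there, and Smtn was bright. Which cells those 8 arrays hold was not tested. Line, construct and whatever else sets the 2 arrays labelled KD mutant apart cannot be told apart. The 6 comparisons among the other 8 arrays are therefore given first.

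Acta1, the actin of skeletal muscle, was the 1 actin that changed among the lines outside the KD mutant. Its RMA log2 values were 8.39 and 8.38 with the ED mutant, 6.99 and 7.10 with the CD mutant, 7.23 and 6.80 with wild type, and 6.42 and 5.99 with empty vector. The arrays of the ED mutant were the highest and those of empty vector the lowest, and neither overlapped with another group, whereas the CD mutant arrays lay between the wild-type arrays. In these bulk samples, more cells that carry a transcript and more transcript per cell cannot be told apart. In group means the order was 8.39 ± 0.0068 with the ED mutant, 7.04 ± 0.076 with the CD mutant, 7.02 ± 0.30 with wild type and 6.21 ± 0.30 with empty vector (SD, n = 2 each).

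**Figure D1:**
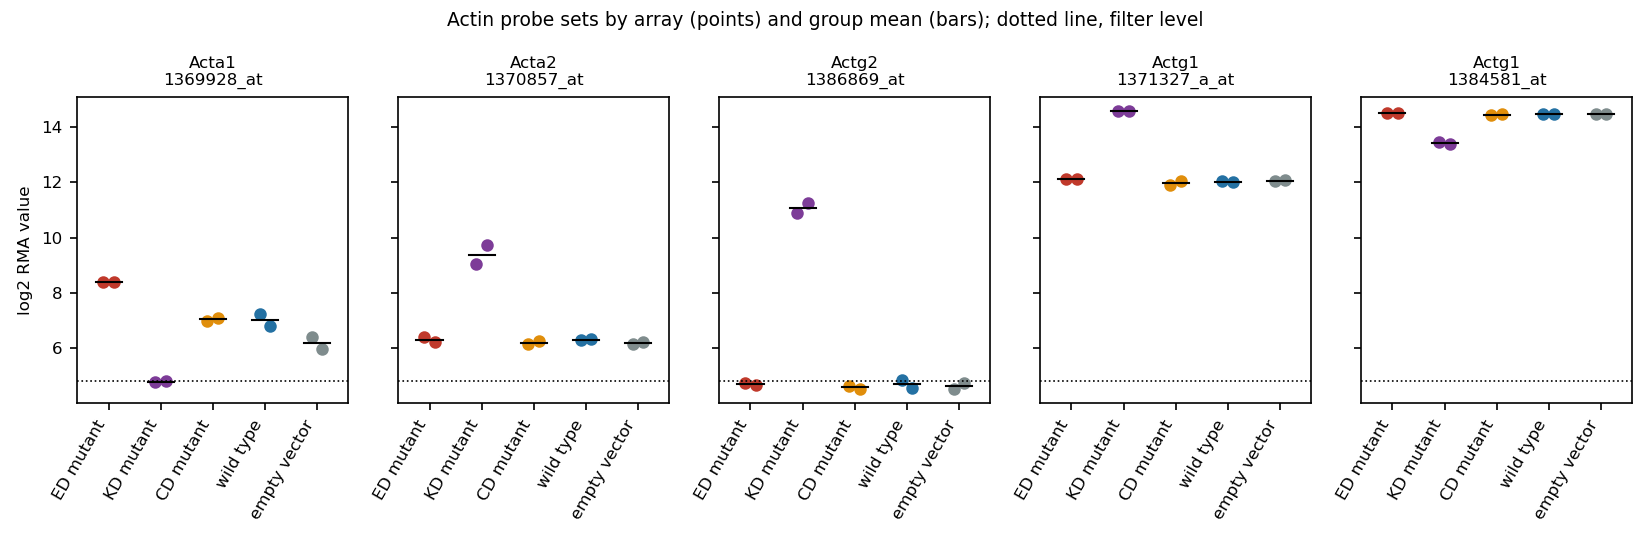
Log2 RMA values of the 5 actin probe sets in the 5 groups, each point an array and each bar the mean of 2; the dotted line is the filter level of 4.82. Acta1 is highest with the ED mutant (8.38 and 8.39), and the arrays labelled KD mutant lie away from all others in each panel.

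Against wild type, Acta1 rose by 1.37 on the log2 scale with the ED mutant, which is 2.59-fold (SE 0.158, 95% interval 1.03 to 1.72, limma adjusted p = 0.0229). This made 1 of 5 actin probe sets changed, where 0.164% of the 22502 probe sets tested changed in this comparison. Among all of them its unadjusted p ranked 2. Without both arrays labelled KD mutant, the difference was again 1.37 and the limma adjusted p 0.0141. With 1 array left out, the limma adjusted p ranged between 0.0471 and 0.233, and the call was lost without either ED mutant array (0.165 without replicate 1, 0.174 without replicate 2) and without wild-type replicate 2 (0.233).

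Against the CD mutant, the ED mutant had 1.34 more on the log2 scale, or 2.54-fold (95% interval 1.00 to 1.69, limma adjusted p = 0.00402), again 1 of 5 actin probe sets, where 0.351% of all changed. Leaving out an array ended this call in 3 of 4 cases, those without CD mutant replicate 1 (limma adjusted p = 0.0776), ED mutant replicate 1 (0.0542) and ED mutant replicate 2 (0.0613). Against empty vector, Acta1 was higher by 2.18 with the ED mutant, or 4.54-fold (95% interval 1.84 to 2.53, limma adjusted p = 0.000273), and 1 of 5 actin probe sets changed, where 0.529% of all did. This difference passed the test under each of the 12 alternatives, including each array left out in turn, with limma adjusted p-values of up to 0.00818. These 3 comparisons share the ED mutant arrays, so they are not separate evidence.

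The remaining lines differed less in Acta1. Wild type was 0.81 above empty vector on the log2 scale (95% interval 0.47 to 1.16, limma adjusted p = 0.175), and the CD mutant was 0.84 above it (0.49 to 1.18, limma adjusted p = 0.115). Neither passed the test over all probe sets. The arrays did not overlap, but those of Acta2 did not overlap either between wild type and empty vector, at a difference of 0.12. In both comparisons 0 of 5 actin probe sets changed, where 0.0133% of all did between wild type and empty vector and 0.111% between the CD mutant and empty vector. In both, 1 of 5 had an unadjusted limma p under 0.05. Of all 22502 probe sets, 1471 had such a p between wild type and empty vector and 1967 between the CD mutant and empty vector. With an intensity trend and robust variance in the limma model, both Acta1 differences passed (adjusted p = 0.0289 for wild type and 0.0133 for the CD mutant). Between the CD mutant and wild type the difference was 0.03, with an interval of -0.32 to 0.37. In that comparison limma called 0% of all probe sets, and 0 of 5 actin probe sets reached an unadjusted p under 0.05, against 784 of all probe sets.

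The smooth muscle actins did not follow Acta1. Acta2 had 6.41 and 6.22 with the ED mutant, 6.15 and 6.25 with the CD mutant, 6.30 and 6.33 with wild type, and 6.15 and 6.24 with empty vector. Its 8 arrays spanned 0.26 on the log2 scale, against 2.40 for Acta1, and the ED mutant arrays lay on both sides of the wild-type arrays. The ED mutant minus wild type difference was 0.00 (95% interval -0.38 to 0.38), so a change of the size seen in Acta1 lay outside the interval. Actg2 had 4.76 and 4.68 with the ED mutant, 4.65 and 4.52 with the CD mutant, 4.86 and 4.57 with wild type, and 4.53 and 4.74 with empty vector. Only wild-type replicate 1 of these 8 arrays reached the filter level, so Actg2 was tested only through its high values on the arrays labelled KD mutant. Its values here are near background, and the groups overlap, except the ED mutant with the CD mutant.

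Gamma-actin of the cytoplasm was nearly level across the same 8 arrays. Actg1 1371327_a_at had 12.13 and 12.14 with the ED mutant, 11.91 and 12.04 with the CD mutant, 12.04 and 12.02 with wild type, and 12.04 and 12.09 with empty vector. Actg1 1384581_at had 14.50 and 14.51 with the ED mutant, 14.44 and 14.46 with the CD mutant, 14.46 on both wild-type arrays, and 14.47 and 14.46 with empty vector. The ED mutant arrays were the highest of the 8 in both probe sets, and by little: 0.10 above wild type for 1371327_a_at (95% interval -0.11 to 0.31, limma adjusted p = 0.89) and 0.04 for 1384581_at (-0.16 to 0.25, limma adjusted p = 0.966). The table's highest value is 14.57, so 1384581_at lay close to the top of the scale, where array signal can be compressed.

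**Figure D2:**
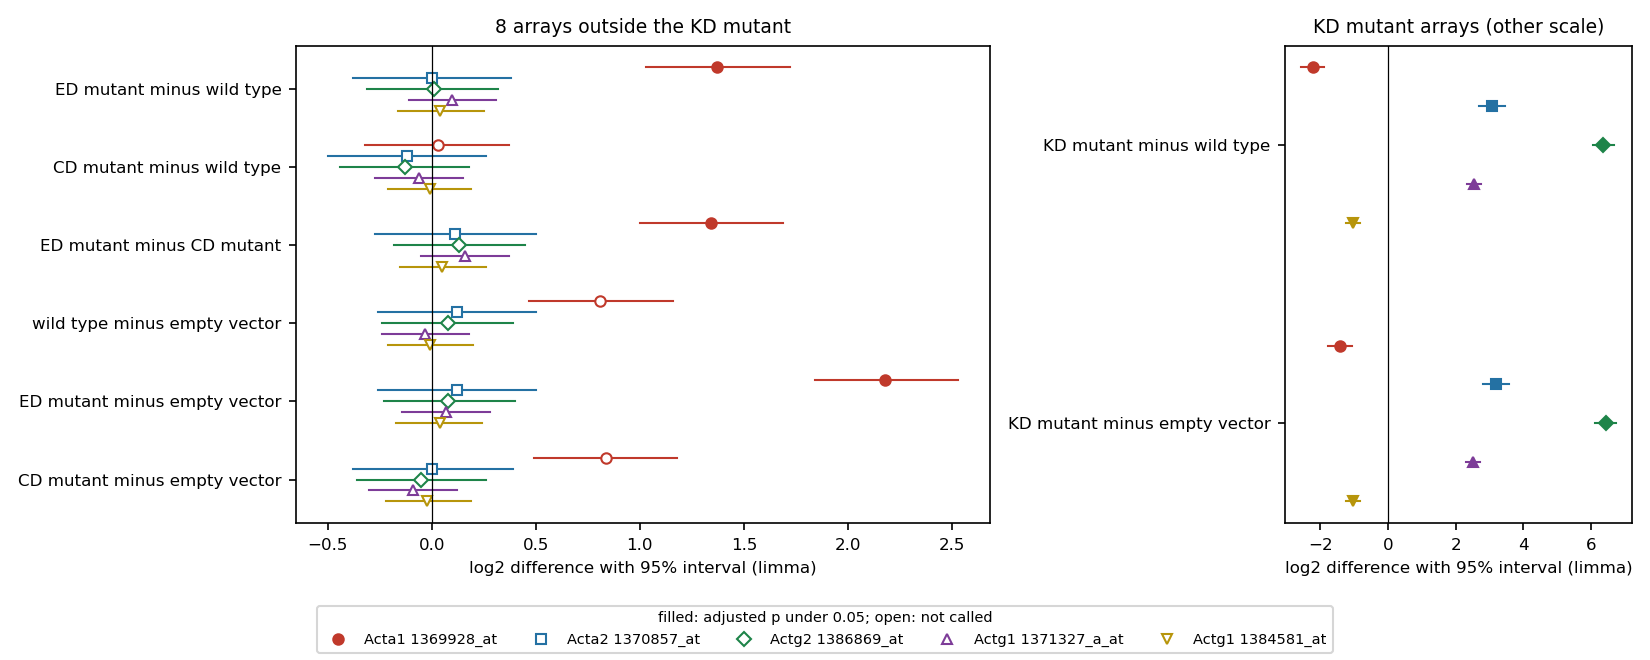
Log2 differences of the 5 actin probe sets with 95% intervals from limma, in the 6 comparisons among 8 arrays (left) and in the 2 comparisons with the arrays labelled KD mutant (right, on another scale); filled symbols passed an adjusted p under 0.05. Acta1 is filled in the 3 comparisons with the ED mutant, at 1.37, 1.34 and 2.18, and all 5 are filled on the right, where Actg2 and Acta1 are dim on one side.

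On the arrays labelled KD mutant the actins were rearranged, but so were most genes: 89.6% of all probe sets changed against wild type and 89.7% against empty vector, so 5 of 5 actin probe sets changed in both is close to the background. Of these, Actg2 and Acta1 passed the filter on low values through 1 side of the comparison. The values are therefore given for their size and direction. The 2 comparisons share the KD mutant arrays. The median over all tested probe sets was -0.56 against wild type as deposited, -0.49 after quantile normalization and -0.16 with arrays centred on their medians, and each actin kept its direction under both.

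The smooth muscle actins were higher there by the probe sets annotated to them alone. The tested probe sets annotated to both Acta2 and Actc1 were lower, as given below. Actg2 had 10.90 and 11.25 on the arrays labelled KD mutant, against 4.52 to 4.86 on the other 8 (median 4.66). The group means differed by 6.36 from wild type and by 6.44 from empty vector on the log2 scale. Actg2 entered the test through these 2 high arrays, so it had to differ, and the other lines lay near background, so these differences are a description with no fold and no p. Acta2 had 9.05 and 9.72, against 6.15 to 6.41 (median 6.25), and rose by 3.07 against wild type, or 8.39-fold (limma adjusted p = 7.93e-09), and by 3.19 against empty vector (limma adjusted p = 5.59e-09). No array of the other lines came near these values, and for Acta2 the pair of KD mutant arrays differed from each other by more than all 8 others did.

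Skeletal muscle actin went the other way. Acta1 had 4.77 and 4.80 on the arrays labelled KD mutant, both under the filter level, against 5.99 to 8.39 on the other 8 (median 7.04). The group means differed by -2.23 from wild type and by -1.42 from empty vector on the log2 scale. Acta1 passed the filter through the other arrays and is dim on these 2, so these differences too are given with no fold and no p. With the KD mutant, Acta1 was thus the lowest of all lines, below empty vector, and with the ED mutant the highest.

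The 2 probe sets of Actg1 disagreed. Actg1 1371327_a_at had 14.57 on both arrays labelled KD mutant, against 11.91 to 12.14 on the other 8, and rose by 2.54 against wild type, or 5.81-fold (limma adjusted p = 2.11e-10). Actg1 1384581_at had 13.46 and 13.40, against 14.44 to 14.51, and fell by 1.03, a 2.04-fold difference (limma adjusted p = 4.7e-07). Neither overlapped with the other 8 arrays. Of 1371327_a_at the replicate 2 value is the highest of the whole table, and no measure of saturation was used here. Whether the 2 probe sets read different transcript ends or other actins was not tested, since probe sequences were not used here, so no single direction is given for Actg1.

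The probe sets that several actins share gave a further view, on which no gene can be named alone. Of the 5 annotated to Acta2 and Actc1, 2 stayed below the filter level on all 10 arrays (1374353_x_at and 1381861_x_at). The other 3 were lower on the arrays labelled KD mutant, against the direction of Acta2's own probe set. Probe set 1385797_at had 6.50 and 6.55 there, against 7.85 to 8.32 on the other 8, and fell by 1.60 against wild type (limma adjusted p = 1.97e-07). Probe sets 1370856_at and 1374352_at fell by 1.01 and 1.00 (limma adjusted p = 4.39e-06 and 2.4e-05). In the 6 comparisons outside the KD mutant, 0 of 5 tested shared probe sets changed and 0 of 5 had an unadjusted limma p under 0.05. So few are near the background, since 0% to 0.529% of all probe sets changed in these comparisons. An unadjusted limma p under 0.05 was found for 784 to 2558 of 22502. Whether the probe sets annotated to Acta2 and Actc1 read one of them or both cannot be told apart.

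Beta-actin was read by 2 probe sets annotated to Actg1l1, Actg1 and Actb and by 3 rat beta-actin controls. Probe set 1398835_at averaged 14.47 on the arrays labelled KD mutant and 14.50 over the other 8, and differed from wild type by -0.05 (95% interval -0.26 to 0.16, limma adjusted p = 0.634). Probe set 1398836_s_at averaged 14.37 on the arrays labelled KD mutant and 13.96 over the other 8, and rose by 0.38 (limma adjusted p = 0.00355). The controls at the 5′ end, middle and 3′ end averaged 13.16, 13.69 and 14.23 on the arrays labelled KD mutant and 13.06, 13.42 and 14.13 over the other 8, and were not tested. The 2 shared probe sets lie close to the highest value of the table, and they also read Actg1, so a level of beta-actin alone cannot be taken from them.

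**Figure D3:**
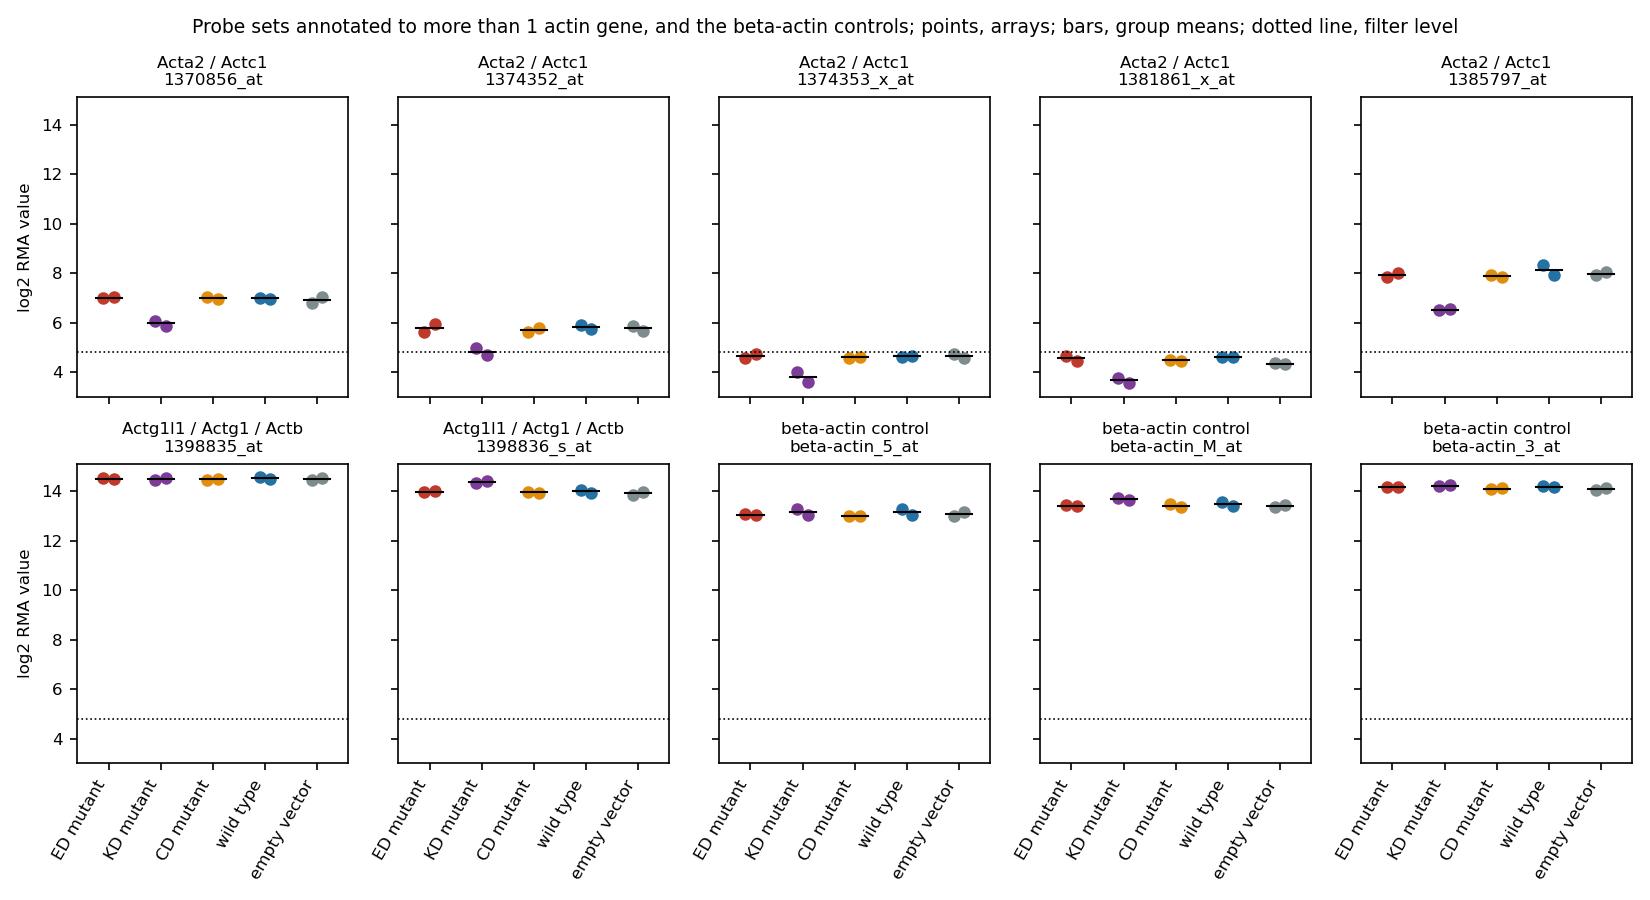
Log2 RMA values of the 7 probe sets annotated to several actins and of the 3 rat beta-actin controls, each point an array and each bar the mean of 2; the dotted line is the filter level of 4.82. The 5 Acta2 / Actc1 probe sets are lower on the arrays labelled KD mutant, and those that read beta-actin lie between 12.98 and 14.55 on every array.

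Genes whose profile over the arrays was most like that of an actin were found by the root mean square difference of centred log2 values, as a description with no test. Over the 8 arrays outside the KD mutant, the 5 genes nearest to Acta1 among 12039 were Slc5a11 (an inositol transporter, 0.263), Fgb (fibrinogen beta chain, 0.303), Lgals4 (a galectin of gut epithelium, 0.351), Hpx (hemopexin, 0.354) and Crip1 (a LIM domain protein, 0.394). A flat gene would stand at 0.798, and the median gene stood at 0.808. Slc5a11 averaged 8.35 with the ED mutant, 7.29 with the CD mutant, 7.25 with wild type and 6.21 with empty vector, so it shared the high ED mutant and low empty vector levels of Acta1. It averaged 4.59 on the arrays labelled KD mutant, which the measure did not use. No gene of the skeletal muscle list is among these 5.

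Over all 10 arrays, the genes nearest to Actg2 were Ltbp1 (a latent TGF-beta binding protein, 0.101), Bcap29 (0.104), Tpm2 (beta-tropomyosin, 0.126), Bmper (a secreted BMP-binding protein, 0.136) and Fam3c (0.146), where a flat gene would stand at 2.57. Those nearest to Acta2 were C2h4orf46 (0.092), Nudcd2 (0.103), Ogdh (0.104), Ctsf (0.119) and Atrnl1 (0.121), where a flat gene would stand at 1.26. All 10 were at one level on 8 arrays and higher on the arrays labelled KD mutant, as these 2 actins were, and the difference of those arrays sets the likeness.

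No skeletal, smooth or cardiac muscle marker passed the test as higher with the ED mutant, against wild type, the CD mutant or empty vector. Of 6 skeletal muscle markers tested, 0 changed between the ED mutant and wild type (1 had an unadjusted limma p under 0.05) and 0 between the ED mutant and empty vector (again 1). So few calls are near the background, since 0.164% and 0.529% of all probe sets changed in these comparisons, and the unadjusted p was under 0.05 for 1721 and 2558 of 22502. Myh3, embryonic myosin heavy chain, was lower with the ED mutant than with the CD mutant, at 6.45 and 7.48, a difference of -1.02 (limma adjusted p = 0.00342), which is opposite to Acta1. The CD mutant was also above empty vector in Myh3, by 0.76 (limma adjusted p = 0.0397). The ED mutant differed from empty vector by -0.26 and from wild type by -0.53, and neither passed (limma adjusted p = 0.425 and 0.172). Myog (myogenin) averaged 5.55 with the ED mutant and 5.51 with wild type, and Ckm (muscle creatine kinase) 5.01 and 5.04. The summed level of the 6 was 8.45 to 8.49 on the ED mutant arrays and 8.63 to 8.65 on the wild-type arrays, on the log2 scale. Of 8 smooth muscle markers and 5 cardiac muscle markers tested, 0 changed between the ED mutant and wild type, and 0 had an unadjusted limma p under 0.05.

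Epithelial markers, like Acta1, had their highest summed level with the ED mutant. Over 6 genes it was 12.59 to 12.63 on the log2 scale on the ED mutant arrays, 12.00 to 12.10 with the CD mutant, 12.15 to 12.16 with wild type and 12.11 with empty vector. The sum was taken on the linear scale, so Krt18, the brightest of them at 11.81 with the ED mutant, weighs most. Against wild type 0 of 6 passed the limma test and 4 of 6 had an unadjusted p under 0.05, with a median difference of 0.43, beside 0.164% of all probe sets called, 1721 of 22502 with such an unadjusted p and a median of -0.003. The list did not rise as a whole, since Cldn7 and Esrp1 differed from wild type by -0.16 and -0.04. Against empty vector 1 of 6 passed, where 0.529% of all probe sets changed. This was Cdh1, which averaged 10.25 with the ED mutant and 9.24 with empty vector and rose by 1.01 (limma adjusted p = 0.00364). Against the CD mutant 2 of 6 passed, where 0.351% of all changed. Krt18 and Krt19, keratins of simple epithelia, rose there by 0.52 and 0.72 (limma adjusted p = 0.0482 and 0.0132). The spiked-in poly-A controls, which are added to the RNA, averaged 7.70 to 7.74 on the ED mutant arrays over 27 probe sets, 7.98 to 8.04 with the CD mutant, 7.04 to 7.79 with wild type and 7.29 to 7.51 with empty vector. The ED mutant arrays lay within the wild-type range. The part of either in the Acta1 differences was not tested.

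Genes that regulate actin were seldom called, like genes in general, among the 8 arrays outside the KD mutant. Between the ED mutant and wild type, 0.164% of all probe sets changed and an unadjusted limma p under 0.05 was found for 1721 of 22502. In that comparison limma called 0 of 14 genes of a list around Srf. Besides Srf, Mrtfa and other partners of Srf, that list held Mef2a, Mef2c, Mef2d, Tead1, Rhoa, Rock1 and Rock2. Limma called 0 of 20 of monomer binding and filament turnover and 0 of 22 of filament nucleation. It also called 0 of 36 of filament binding and stress fibres, 0 of 16 of actin folding and 0 of 9 actin-related proteins. The numbers with an unadjusted p under 0.05 in these lists were 1, 4, 1, 4, 1 and 0, and the list medians lay between -0.12 and 0.12, beside a median over all probe sets of -0.003. Srf averaged 8.34 with the ED mutant and 8.26 with wild type, and Mrtfa 6.17 and 6.19. Over the 6 comparisons, 2 of these genes passed once each. Pfn2, a profilin that binds monomers, averaged 5.25 with the ED mutant and 5.83 with the CD mutant and fell by 0.58 (limma adjusted p = 0.0385), where 0.351% of all probe sets changed. Tpm1, an alpha-tropomyosin that lies along the filament, averaged 11.43 with the ED mutant and 12.11 with empty vector and fell by 0.69 (limma adjusted p = 0.0336), where 0.529% of all changed.

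**Figure D4:**
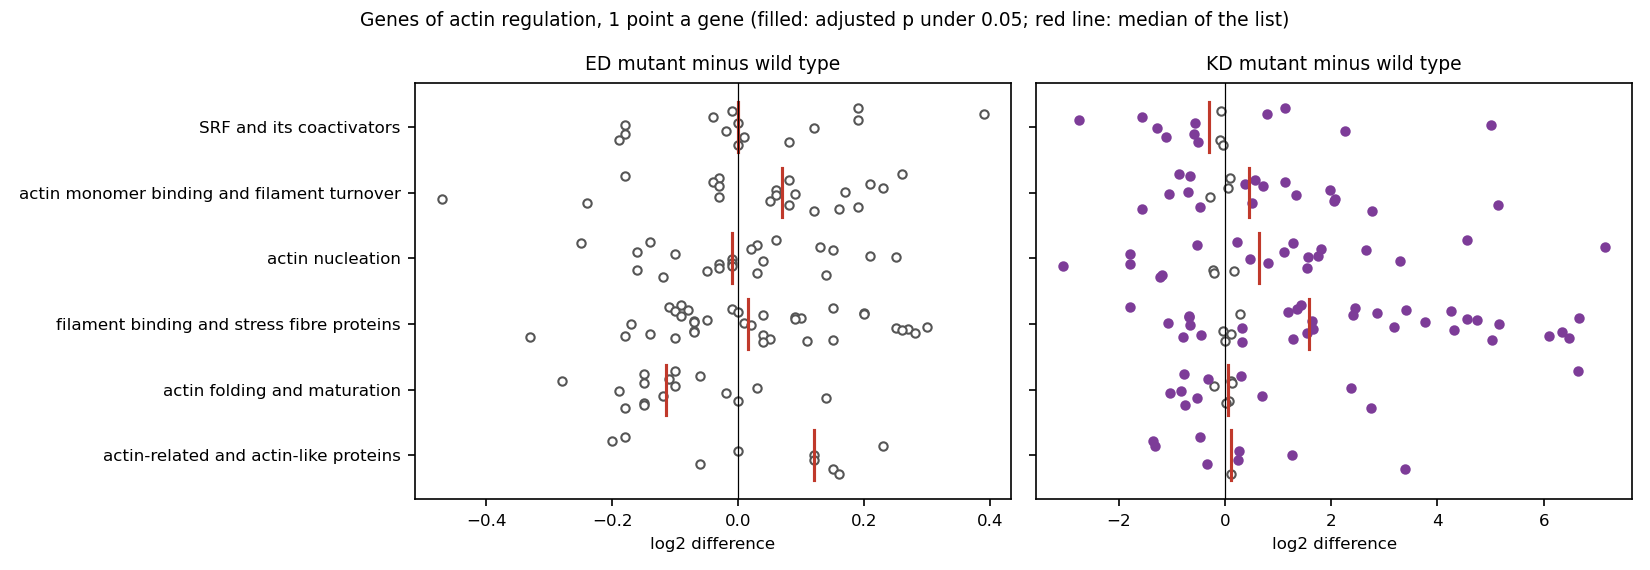
Log2 differences of the genes of 6 lists of actin regulation, 1 point a gene, for the ED mutant minus wild type (left) and the KD mutant minus wild type (right, on another scale); filled points passed an adjusted p under 0.05 and red lines are list medians. No point is filled on the left, where all lie between -0.47 and 0.39.

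On the arrays labelled KD mutant most of these genes changed against wild type, as 89.6% of all probe sets did (34.5% of all were higher and 55.1% of all lower). The list of filament binding and stress fibre proteins had 25 of 36 genes higher and 7 lower, with a median of 1.59 beside -0.56 over all probe sets. In each of the 6 actin lists, 1 to 3 genes were dim on the other 8 arrays and entered the test through the arrays labelled KD mutant, so they had to differ; they were 2335 of all 22502 probe sets and 3 of the 36 genes here, and without them 22 were higher. Likewise 5960 of the 12404 lower probe sets, and 1 of the 7 here, lay under the filter level on both arrays labelled KD mutant, so the medians are descriptions. Values of such genes are given below with no p. Tpm2 averaged 11.31 on the arrays labelled KD mutant and 4.84 with wild type and rose by 6.47 (limma adjusted p = 1.98e-12), with the other 8 arrays on both sides of the filter level (4.59 to 4.96). Tagln, which binds filaments in smooth muscle, rose by 6.35 and the tropomyosin Tpm4 by 5.03 (limma adjusted p = 2.38e-12 and 1.41e-12). The filament-capping Tmod3, one of the dim genes, averaged 9.21 on the arrays labelled KD mutant and 2.89 to 3.30 on the other 8. Tpm1 fell by 0.78 (limma adjusted p = 6.11e-05), so the tropomyosins did not all move one way.

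The other lists were more mixed. Among nucleators, 13 of 22 were higher, 11 without the dim genes, and 6 lower. Actr2, of the Arp2/3 complex that starts branched filaments, rose by 4.55 and the formin Fmnl2 fell by 3.04 (limma adjusted p = 4.07e-12 and 6.97e-11). Arpc3, of the Arp2/3 complex and dim elsewhere, averaged 11.63 on the arrays labelled KD mutant and 4.44 to 4.62 on the other 8. Over those 8 arrays the other subunits tested averaged 7.56 (Arpc5) to 13.24 (Arpc2). What the Arpc3 probe set reads there was not tested. Among genes of monomer binding and turnover, 11 of 20 were higher, 10 without the dim gene, and 6 lower, with Twf1 (twinfilin) up by 5.14 and Pfn2 up by 2.07 (limma adjusted p = 1.84e-12 and 1.9e-09). Among folding genes 5 of 16 were higher, 3 without the dim genes, and 6 lower, with the prefoldin Pfdn2 down, at -1.03 (limma adjusted p = 1.51e-06). Cct2, a subunit of the chaperonin that folds actin, averaged 11.38 on the arrays labelled KD mutant and 4.59 to 4.80 on the other 8. Over those 8 arrays the other chaperonin subunits tested averaged 9.7 (Cct6a) to 12.37 (Tcp1). What the Cct2 probe set reads there was not tested. Of 9 actin-related proteins, 4 were higher, 3 without the dim gene, and 4 lower.

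Of the list around Srf, 4 of 14 were higher, 3 without the dim gene, and 7 lower on the arrays labelled KD mutant, with a median of -0.29. Mef2a, Mef2d, Rhoa and Rock1 were among the 7 lower there. Mrtfa averaged 8.45 there and 6.19 with wild type and rose by 2.26 (limma adjusted p = 1.94e-09). Mef2c, a muscle transcription factor and the dim gene here, averaged 9.30 there and 3.68 to 4.43 on the other 8. Srf averaged 7.76 and 8.26 and fell by 0.50 (limma adjusted p = 0.000496). Gata6 averaged 4.71 there, under the filter level, and 7.45 with wild type. Of 8 smooth muscle markers, 4 were higher, 3 without the dim Cnn1, and 2 lower. Of 6 fibroblast markers 4 were higher, 2 without the dim genes, and 2 lower. Col1a1, a chain of type I collagen, averaged 10.55 on the arrays labelled KD mutant and 6.07 with wild type and rose by 4.48 (limma adjusted p = 1.96e-11), and Col1a2, another chain of it and dim elsewhere, averaged 13.62 there and 3.56 to 4.18 on the other 8. All 6 epithelial and all 6 skeletal muscle markers tested were lower, and of 5 cardiac muscle markers 1 was higher and 4 lower. The 1 endothelial and 4 leukocyte markers tested were lower. Of all probe sets tested, 55.1% were lower. Among the lower markers, 2 epithelial, 3 skeletal muscle, 2 cardiac muscle, 1 endothelial, 2 leukocyte and 2 fibroblast genes lay under the filter level on both arrays labelled KD mutant. They entered the test through the other arrays only, as 5960 of all 12404 lower probe sets did, so these counts are descriptions. The part of cell type in the actin differences of these arrays was not tested.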

How the data were processed

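Biotin-labelled total RNA was hybridised to Affymetrix rat arrays, per the labels. The deposited table holds log2 values from the authors' RMA step, per the submitters' processing notes, with no version and no word on joint normalization in the sources used here. RMA removes background, aligns array distributions and compresses differences of dim probe sets. Genes came from the platform annotation (20826 probe sets with 1 gene, 436 with several, 9780 with none), with symbols updated through Entrez and RefSeq GRCr8. After 57 controls were set aside, 22502 probe sets at or above log2 4.82, the 40th percentile of the table, on 2 or more of 10 arrays entered a limma fit (version 3.58.1, R 4.3.3) of 5 group means. It had 5 residual and 11.4 total degrees of freedom. P-values are two-sided, with Benjamini-Hochberg adjustment over all 22502 in each of 8 comparisons, and a gene changed if its adjusted p was under 0.05. The number of arrays limits the precision. List genes were read by their brightest probe set, and the 4 lowest adjusted p-values of a list, where they passed, set its named genes; Tpm1, Srf, Mrtfa, Myog and Ckm have values named elsewhere that were chosen after being seen. All 5 actin probe sets passed the filter. The fit was checked on simulated data with changes planted in the ED mutant only. That check did not copy the difference of the KD mutant arrays. Alternatives were no filter, the 60th percentile, quantile normalization, median centring, an intensity trend with robust variance, a replicate block, an adjusted p under 0.01, only the arrays of the 2 groups compared, no KD mutant arrays, and each array left out. The members and lists were chosen with earlier results of these data known, and the search for CArG-like boxes was added after the promoters were seen.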

Additional observations from a re-analysis of the deposited data

How the results depend on the processing

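All 5 actin probe sets stayed changed in both KD mutant comparisons under each of 11 alternatives. That count says little, since 89.6% and 89.7% of all probe sets changed there as reported. Actg2 and Acta1 also passed the filter through 1 side of these comparisons only. Acta1 stayed higher with the ED mutant than with empty vector under 12. Of the recomputed counts of changed actin probe sets, 92 stayed within 1.5 times of the reported count and 10 did not. With an intensity trend and robust variance, 1 actin probe set changed between wild type and empty vector and 1 between the CD mutant and empty vector (Acta1 in both, limma adjusted p = 0.0289 and 0.0133). Between the ED mutant and wild type, 0 changed at an adjusted p under 0.01 and 0 with only the arrays of the 2 groups (Acta1 1.37, limma adjusted p = 0.0652). With 1 array left out, the count lay between 0 and 1 for the ED mutant against wild type and against the CD mutant; without wild-type replicate 1, Acta1 was the 1 probe set of all 22502 that limma called. The cause was not tested, other than that fewer arrays were fitted. The replicate numbers do not pair the arrays (correlations of deviations from -0.03 to 0.14, 1 of 10 over 0.1), and a replicate block changed no actin call (Acta1 1.37 between the ED mutant and wild type). Counts over all probe sets moved more than the actins. Between the ED mutant and wild type they ranged from 0 to 142 over the alternatives, against 37 as reported, between the ED and CD mutants from 12 to 287, against 79, and between the ED mutant and empty vector from 19 to 493, against 119. Between the CD mutant and empty vector they ranged from 1 to 144, against 25, with 12 under the replicate block, and between wild type and empty vector from 1 to 68, against 3, with 1 under the block. The highest count of each came with the intensity trend and robust variance. Actg2 could not be tested without the KD mutant arrays, since it was too dim. No direction that passed the test was turned by an alternative.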
